A study of Mus musculus with 34 samples.

Results

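The genes described here are 10 genes known for heat production in brown fat: *Ucp1*, *Cidea*, *Dio2*, *Ppargc1a*, *Ppargc1b*, *Elovl3*, *Cox7a1*, *Cox8b*, *Otop1*, and *Fabp3*. They were chosen by name, and all 10 were found among the 23109 genes in the deposited RNA-Seq tables. Each gene was represented by its RefSeq transcript with the highest mean RPKM, a read number adjusted for transcript length and sequencing depth, over 14 libraries. All libraries came from brown preadipocytes isolated from interscapular brown fat of newborn C57BL/6J pups and immortalized with SV40T. The labels give the pups as GRf/f, with a floxed glucocorticoid receptor gene, and the paper's methods describe WT mice. The treatment text shared by the labels also mentions Vec or Cre retroviruses for making WT or GR KO cells, but no title or sample characteristic assigns either to a library, and which parent line was used could not be settled here. *Nr3c1*, the glucocorticoid receptor gene, had an RPKM of 10.1 to 30.9 in the 14 libraries. In the first experiment, cells received H3.3, either WT or with the K36M mutation, by retrovirus and were collected at D0, D2, and D7 of adipogenesis (WT and K36M cells). In the second, the same kinds of cells also carried ectopic PPARγ. They were treated while sub-confluent with DMSO (labelled 0 h) or the PPARγ ligand rosiglitazone (Rosi) for 24 h. In the third, cells carried a control (Ctrl) or *Nsd2* knockdown (KD) shRNA delivered by lentivirus and were collected at D0 and D2. Adipogenesis was induced with insulin, T3, IBMX, dexamethasone, and indomethacin for 2 days. Each of the 14 conditions has 1 library, so each ratio compares 2 libraries and not 2 conditions, and no difference has a replicate check.

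Brown adipocytes produce heat by letting protons return across the inner mitochondrial membrane without making ATP, and the carrier that does so is UCP1. The sympathetic nervous system turns the program on through β-adrenergic receptors and cAMP, and the nuclear receptor PPARγ with the coactivators PGC-1α and PGC-1β raises the genes for mitochondria and for burning fatty acids. *Ucp1*, *Cidea*, and *Dio2* are the genes most often used to recognize a thermogenic brown adipocyte.

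The promoters of 4 members are shown because these genes cover the range of behaviour in the data: *Ucp1* and *Dio2* stayed at 5 reads or fewer in every library, *Ppargc1a* reached 544 reads in differentiated WT cells, and *Otop1* reached its highest level in PPARγ cells. Each line gives the 250 bases before the RefSeq gene start, 5′ to 3′ on the gene's strand, in the GRCm38.p6 build. Capitals mark the motifs found. The windows are chr8:83290098-83290347 on the plus strand for *Ucp1*, chr12:90739039-90739288 on the minus strand for *Dio2*, chr5:51567726-51567975 on the minus strand for *Ppargc1a*, and chr5:38277154-38277403 on the plus strand for *Otop1*.
Ucp1: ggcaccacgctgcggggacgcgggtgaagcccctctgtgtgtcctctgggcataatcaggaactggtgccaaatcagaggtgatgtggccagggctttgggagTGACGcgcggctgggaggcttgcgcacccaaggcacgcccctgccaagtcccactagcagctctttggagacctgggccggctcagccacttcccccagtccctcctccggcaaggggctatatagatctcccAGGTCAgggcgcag
Dio2: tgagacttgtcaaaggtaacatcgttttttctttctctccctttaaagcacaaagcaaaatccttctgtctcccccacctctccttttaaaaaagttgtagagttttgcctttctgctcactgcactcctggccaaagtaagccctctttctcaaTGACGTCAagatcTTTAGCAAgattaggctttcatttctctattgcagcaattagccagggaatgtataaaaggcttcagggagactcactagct
Ppargc1a: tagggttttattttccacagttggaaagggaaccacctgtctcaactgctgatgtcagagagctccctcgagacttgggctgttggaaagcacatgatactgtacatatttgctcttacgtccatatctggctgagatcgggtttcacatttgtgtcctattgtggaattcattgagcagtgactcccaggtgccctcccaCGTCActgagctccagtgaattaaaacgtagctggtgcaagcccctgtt
Otop1: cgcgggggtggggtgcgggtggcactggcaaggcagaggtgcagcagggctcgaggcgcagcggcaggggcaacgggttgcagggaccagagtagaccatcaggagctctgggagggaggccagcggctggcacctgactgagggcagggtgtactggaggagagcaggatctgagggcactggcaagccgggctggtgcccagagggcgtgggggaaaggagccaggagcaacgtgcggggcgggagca
Motifs were searched on both strands of windows of 300 bases, 250 before and 50 after the start, and 7 members had an entry. The nuclear receptor half-site AGGTCA was found in 1 of 7 members (*Ucp1*, starting 14 bases before the gene start) and in 16.3% of all 32851 promoters. The PPAR element made of 2 copies of AGGTCA in the same direction with 1 base between them (DR1) was found in 0 of 7 members and 0.0396% of promoters, and the ERR element TNAAGGTCA, which contains AGGTCA, in 0 of 7 and 1.28%. TGACG, the core of the cAMP response element, was found in 4 of 7 (*Ucp1*, *Dio2*, *Ppargc1a*, and *Fabp3*) and 20.8% of promoters. The whole element TGACGTCA, which contains TGACG, was found in 1 of 7 (*Dio2*, starting 95 bases before the gene start) and 1.79%, and the C/EBP site TTGCNNAA in 1 of 7 (*Dio2*, on the opposite strand) and 10.8%. In the lines shown, *Otop1* holds none of these letters, and *Ppargc1a* holds TGACG on the opposite strand, read in the line as its reverse complement.

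The libraries held 12213559 to 24365867 mapped reads, and whole reads could be recovered from the RPKM values. A count of 0 allows a level of up to 3 reads, and the RPKM of 3 reads is given as that limit for the members near it. Intervals are 95% exact (Clopper-Pearson) intervals on the log2 ratio and cover counting error only. *Nsd2*, the targeted gene, had an RPKM of 19.9 in Ctrl and 5.85 in KD cells at D0, and 29.0 and 7.01 at D2. The 12 adipocyte genes listed for both brown and white fat, such as *Fabp4*, *Adipoq*, and *Plin1*, summed to an RPKM of 286, 6137, and 6491 in WT cells at D0, D2, and D7, and to 103, 2191, and 573 in K36M cells. They summed to 216 and 3912 in WT PPARγ cells with DMSO and Rosi, to 139 and 1495 in K36M PPARγ cells, to 48.1 and 2653 in Ctrl cells at D0 and D2, and to 28.0 and 181 in KD cells. *Fabp4* and *Lpl* were large parts of these sums, at 3249 and 2145 in WT cells at D2 and 1473 and 470 in K36M cells at D2. The median RPKM of the 12 genes at D0, D2, and D7 was 1.64, 87.5, and 236 in WT cells. In K36M cells it was 0.421, 20.3, and 18.5, so the sum fell from D2 to D7 more than the median did. In these cultures, fewer cells of a type and less RNA per cell cannot be told apart.

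The data go against the label for the defining genes, since *Ucp1*, *Cidea*, and *Dio2* were at or near 0 reads in libraries where the adipocyte genes were high. Of the 10 members, 4 had at most 5 reads in every library (*Ucp1*, *Cidea*, *Dio2*, and *Cox8b*), and *Cox7a1* had at most 12. These 5 members held 117 reads in all 14 libraries together, against 5611 reads of the other 5. *Ucp1* (chr8:85814247-85822355 in mm9, plus strand) had 5 reads in WT cells at D2 (RPKM of 0.159), 4 in K36M cells at D2 (0.194), 1 in WT cells at D7 (0.0457), 1 in each of the Ctrl libraries (0.0308 at D0 and 0.0302 at D2), and 0 in the other 9 libraries. The limit of 3 reads would correspond to an RPKM of 0.0749 to 0.149 for this transcript of 1644 bases, so *Ucp1* passed that level in the D2 libraries of the first experiment and in no other. In WT cells at D7, 15293 genes had a higher RPKM than *Ucp1*.

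*Cidea*, a lipid droplet protein of brown fat, had 2 reads in KD cells at D2, 1 in each WT PPARγ library, and 0 in the other 11 libraries, and so never passed 3 reads, which correspond to an RPKM of 0.106 to 0.211. *Dio2* (chr12:91962994-91976878, minus strand), which makes active thyroid hormone inside the cell, had 4 reads in each of the K36M PPARγ libraries and in Ctrl cells at D2 and at most 3 elsewhere. Its highest RPKM was 0.0543. No library stood out for either gene, and no fold between 2 libraries at or below 3 reads is given.

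The respiratory chain subunits *Cox7a1* and *Cox8b*, forms that brown fat shares with heart and muscle, were also low. *Cox7a1* (chr7:30969190-30971047, plus strand) had 5, 4, and 12 reads in WT cells at D0, D2, and D7 and 6 in each K36M library of that experiment. Its RPKM in WT cells was thus 0.639, 0.572, and 2.46, and the D7 library was 4.30-fold above D2 (log2 ratio of 2.11, 95% counting interval of 0.38 to 4.19). In the other 8 libraries *Cox7a1* had 0 to 7 reads. *Cox8b* (chr7:148084842-148086345, minus strand) had 5 reads in WT cells at D7 (RPKM of 1.03), 2 in K36M cells at D7 (0.451), and 0 to 2 elsewhere. Against the 0 reads at D2, the counting interval of the WT D7 ratio had a lower limit of 0.39 on the log2 scale. WT cells at D7 had the highest value of both subunits, and at D7 the K36M ratio was 1.83-fold lower for *Cox7a1* and 2.29-fold lower for *Cox8b*, with counting intervals that included no change (-2.57 to 0.65 and -4.59 to 1.41).

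**Figure D1:**
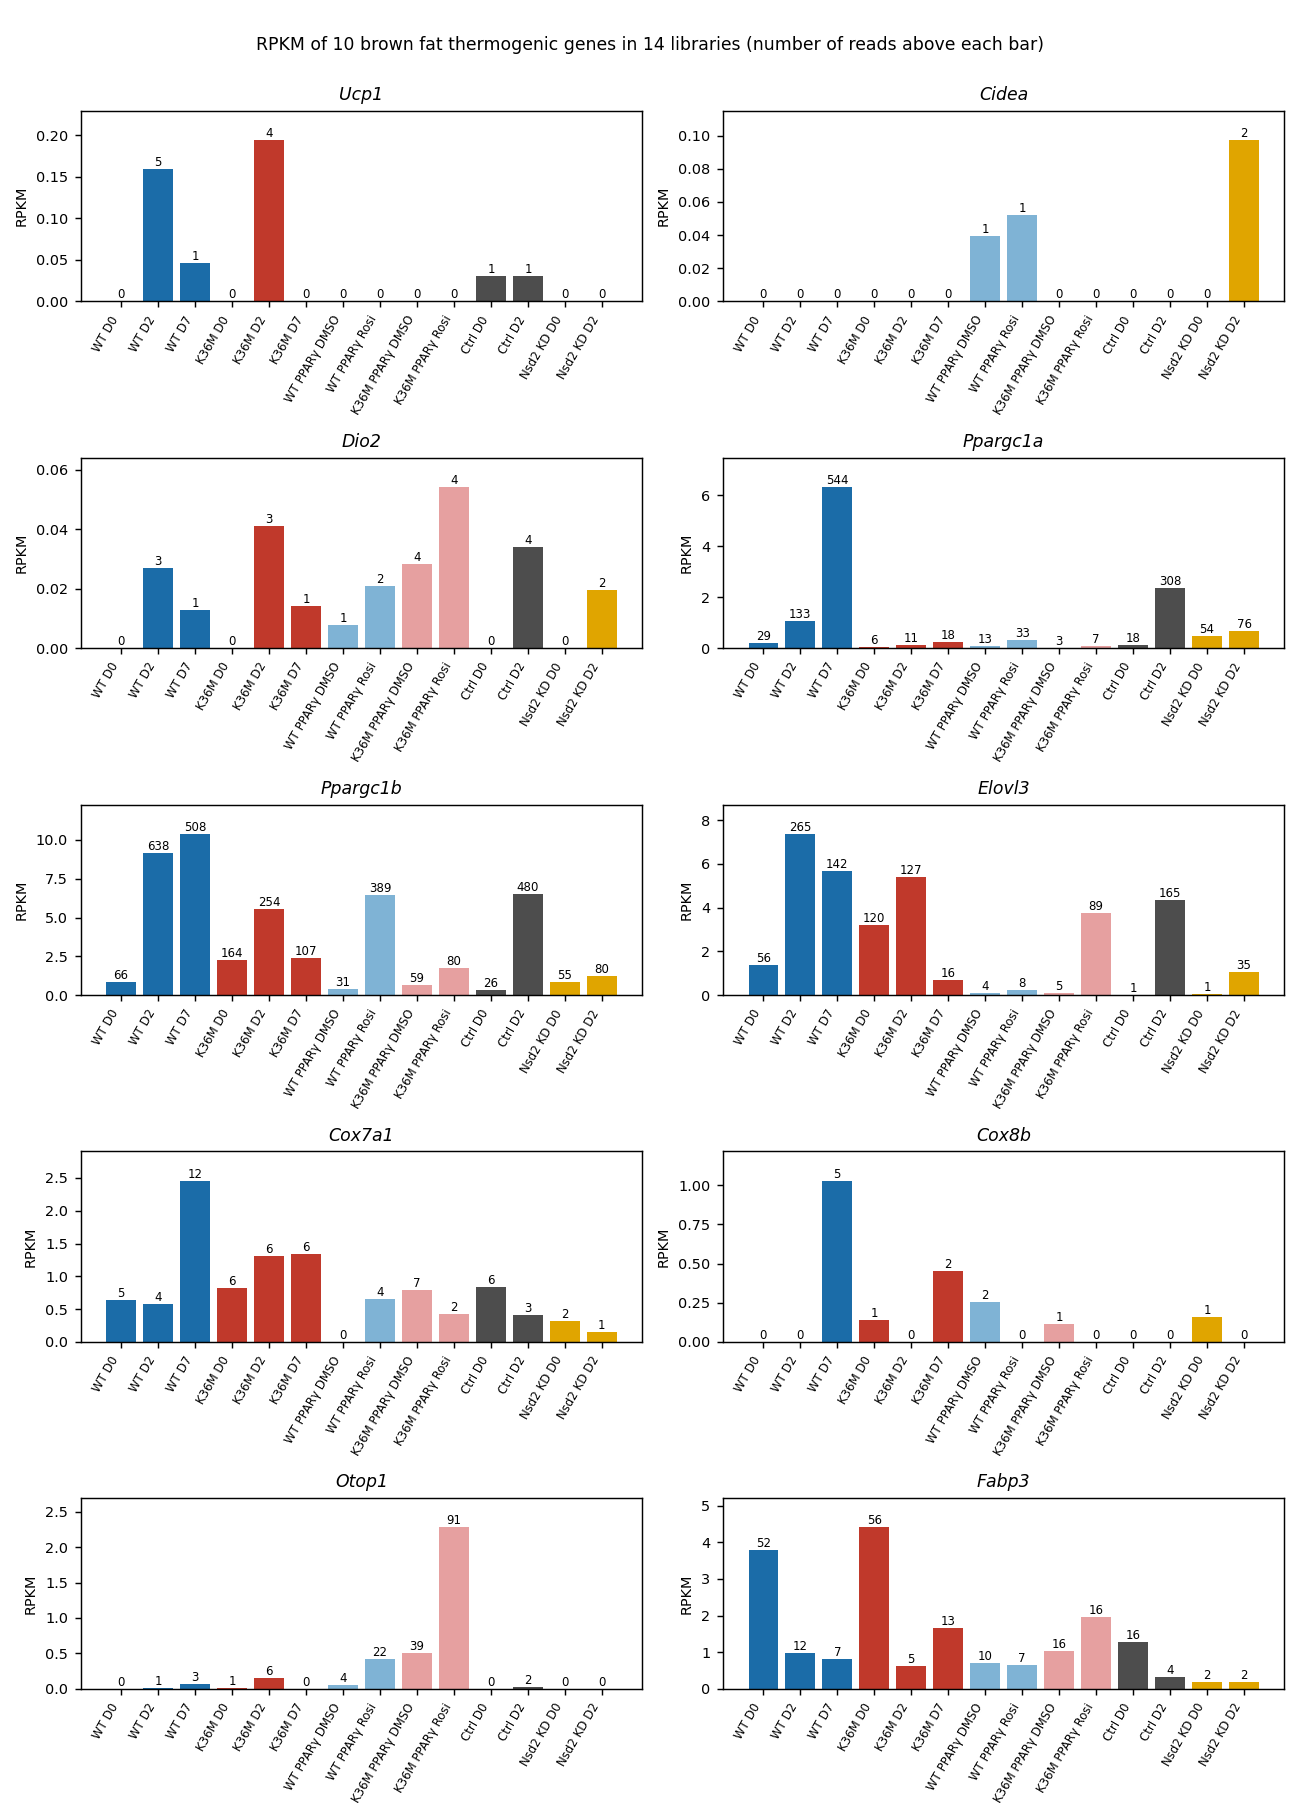
RPKM (vertical axis, linear from 0, own scale in each panel) of the 10 genes in each of the 14 libraries, with the number of reads above each bar and 1 library per bar. *Ucp1*, *Cidea*, *Dio2*, and *Cox8b* have at most 5 reads anywhere, whereas *Ppargc1a* and *Ppargc1b* reach 544 and 638 reads in WT cells.

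Some family members of the same genes were abundant in the same libraries, and others were at or near 0. *Ucp2*, an uncoupling protein relative found in many tissues, had an RPKM of 72.8 in WT cells at D2, its highest library, where *Ucp1* was at 0.159. In WT cells at D7 *Ucp2* was at 15.8 and *Ucp1* at 0.0457. *Cidec*, the CIDE protein shared by white and brown fat, reached 236 in WT cells at D7, where *Cidea* was at 0. The widely expressed subunits *Cox7a2* and *Cox8a* were at 70.3 and 332 at that time, against 2.46 for *Cox7a1* and 1.03 for *Cox8b*. *Fabp4*, the adipocyte fatty acid binding protein, was at 2644, against 0.821 for the heart form *Fabp3*. In the other direction, *Dio1*, *Otop3*, and *Cox8c* were at 0, *Otop2* was at 0.0322, *Ucp3* at 0.123, and *Dio3* at 0.241. Of the 25 paralogues listed, 11 had an RPKM over 10 in WT cells at D7 and 7 were at 0, and of the 10 members only *Ppargc1b*, at 10.4, did. The median over the members was 0.928, over the paralogues it was 1.28, and over the 12 adipocyte genes, which ranged from 79.3 to 2644, it was 236.

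**Figure D2:**
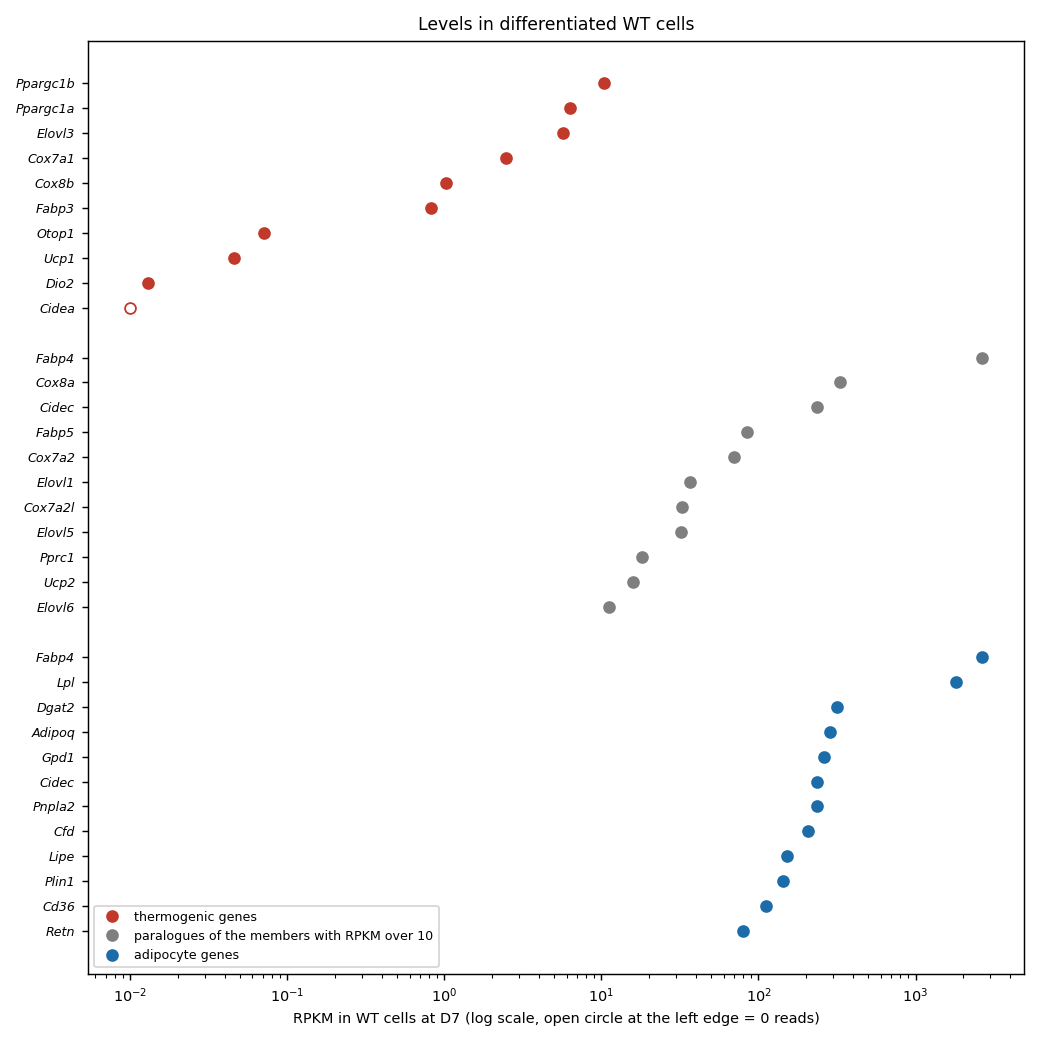
RPKM in WT cells at D7 (horizontal axis, log scale) of the 10 thermogenic genes, the 11 paralogues over 10, and the 12 adipocyte genes, 1 library. The thermogenic genes lie at 10.4 or lower and *Cidea* is at 0 reads, and the adipocyte genes start at 79.3.

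Near-identical copies elsewhere in the genome were searched for, because the sources used here do not say how reads that match several places were counted. For 9 of the 10 members, no match of at least 50 bases at 95% identity was found outside the gene in mm9. For *Fabp3*, 91.6% of the transcript was also found at 1 other place, so its values are uncertain. Transcripts with many copies were listed very low in some or all libraries. *Gapdh*, with 54 matches elsewhere, was between 0.967 and 3.10 in all 14 libraries, and *Ppia*, with 25 matches, was between 0.753 and 2.24 in the 6 libraries of the first experiment and between 290 and 550 in the other 8. Of the paralogues checked, *Ucp2* had 15 matches elsewhere over 7.45% of its transcript and *Fabp5* had 3 over 68.8%, and *Cox7a2*, *Cox8a*, *Fabp4*, and *Cidec* had no such match.

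*Ppargc1a* and *Ppargc1b*, which encode the coactivators PGC-1α and PGC-1β, carried the largest numbers of reads. In WT cells *Ppargc1a* (chr5:51845488-51958964, minus strand) was at 0.210, 1.08, and 6.32 RPKM at D0, D2, and D7 (29, 133, and 544 reads), and in K36M cells at 0.0467, 0.136, and 0.228 (6, 11, and 18 reads). Each WT library was above each K36M library except that K36M D7 was just above WT D0. The WT level was 5.13-fold higher at D2 than at D0 (log2 ratio of 2.36, interval of 1.77 to 2.99) and another 5.87-fold higher at D7 (2.55, 2.28 to 2.84). K36M cells were 4.49-fold lower than WT cells at D0 (-2.17, -3.72 to -0.87), 7.93-fold lower at D2 (-2.99, -4.02 to -2.10), and 27.7-fold lower at D7 (-4.79, -5.56 to -4.12). The summed adipocyte genes were also lower in K36M cells at each of these times, and their part in these ratios was not tested.

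In cells with *Nsd2* KD the order of the *Ppargc1a* levels changed between the times. The gene was at 0.141 in Ctrl and 0.479 in KD cells at D0 (18 and 54 reads) and at 2.36 and 0.666 at D2 (308 and 76 reads). KD cells were thus 3.40-fold higher at D0 (log2 ratio of 1.77, interval of 0.97 to 2.62) and 3.55-fold lower at D2 (-1.83, -2.21 to -1.46). From D0 to D2 the gene was 16.8-fold higher in Ctrl cells (4.07, 3.38 to 4.84), while in KD cells the ratio was 1.39-fold with an interval that included no change (-0.05 to 1.00). Of the 12 adipocyte genes, 5 were over 2-fold higher in KD cells at D0 (*Adipoq*, *Cidec*, *Cd36*, *Retn*, and *Cfd*). Only *Fabp4* was over 2-fold lower. Over all genes, 13.5% were higher and 18.1% lower. The counting interval excluded no change for 1 of the higher genes and for *Fabp4*. The median log2 ratio over the 11 adipocyte genes with reads in both libraries was -0.29, beside 0.01 over all genes. The median RPKM of all 12 adipocyte genes was 0.725 in KD and 0.251 in Ctrl cells, and their sum was lower in KD cells. At D2, 11 were lower (18.5% of all genes) and 0 higher (12.0%), and the interval excluded no change for all 11. The part of these genes in the ratios was not tested. In PPARγ cells *Ppargc1a* stayed low, at 0.0925 in WT cells with DMSO and 0.309 with Rosi (13 and 33 reads) and at 0.0190 and 0.0855 in K36M cells (3 and 7 reads). With Rosi, WT cells were 3.34-fold above their DMSO library (1.74, 0.77 to 2.79) and K36M cells 4.49-fold above theirs (2.17, 0.04 to 4.75). K36M cells were 4.85-fold below WT cells with DMSO (-2.28, -4.73 to -0.42) and 3.61-fold below them with Rosi (-1.85, -3.27 to -0.65).

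*Ppargc1b* differed from *Ppargc1a* at D0, where it was higher in K36M cells. It was at 0.844, 9.13, and 10.4 RPKM in WT cells at D0, D2, and D7 (66, 638, and 508 reads) and at 2.26, 5.54, and 2.40 in K36M cells (164, 254, and 107 reads). The WT level was 10.8-fold higher at D2 than at D0 (log2 ratio of 3.44, interval of 3.07 to 3.82) and almost level from D2 to D7 (0.19, 0.02 to 0.36), whereas the K36M level was 2.45-fold higher at D2 (1.30, 1.01 to 1.59) and then 2.31-fold lower at D7 (-1.21, -1.55 to -0.88). Against WT cells, K36M cells were 2.68-fold higher at D0 (1.42, 1.00 to 1.85), 1.65-fold lower at D2 (-0.72, -0.94 to -0.51), and 4.35-fold lower at D7 (-2.12, -2.44 to -1.82). The K36M series thus began above the WT series and ended below it.

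With ectopic PPARγ, *Ppargc1b* followed the ligand. It was at 0.390 in WT cells with DMSO and 6.43 with Rosi (31 and 389 reads), a ratio of 16.5-fold (log2 ratio of 4.04, interval of 3.52 to 4.62), and at 0.662 and 1.73 in K36M cells (59 and 80 reads), a ratio of 2.61-fold (1.38, 0.88 to 1.89). K36M cells were 1.70-fold above WT cells with DMSO (0.76, 0.11 to 1.44) and 3.72-fold below them with Rosi (-1.90, -2.26 to -1.55). In the KD experiment the gene was at 0.360 and 6.51 in Ctrl cells at D0 and D2 (26 and 480 reads) and at 0.863 and 1.24 in KD cells (55 and 80 reads). KD cells were 2.40-fold higher at D0 (1.26, 0.56 to 1.99) and 5.26-fold lower at D2 (-2.39, -2.75 to -2.05). In all 3 experiments the perturbed cells were thus higher at D0 or with DMSO and lower at the later times or with Rosi. In each case the counting interval excluded no change.

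*Elovl3* (chr19:46206387-46210184, plus strand), which encodes an enzyme that lengthens fatty acids and is induced in brown fat by cold, reached 265 reads. It was at 1.39, 7.38, and 5.67 RPKM in WT cells at D0, D2, and D7 (56, 265, and 142 reads) and at 3.22, 5.39, and 0.697 in K36M cells (120, 127, and 16 reads). K36M cells were 2.31-fold above WT cells at D0 (log2 ratio of 1.21, interval of 0.74 to 1.69), 1.37-fold below at D2 (-0.45, -0.77 to -0.14), and 8.14-fold below at D7 (-3.02, -3.87 to -2.28). Within K36M cells the gene was 7.74-fold lower at D7 than at D2 (-2.95, -3.80 to -2.20), against 1.30-fold lower in WT cells (-0.38, -0.68 to -0.08).

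The level of *Elovl3* in undifferentiated cells differed between the experiments. WT cells at D0 had 56 reads, whereas Ctrl and KD cells at D0 had 1 read each (0.0269 and 0.0305 RPKM), and the Ctrl library was 51.7-fold below the WT library (-5.69, -11.02 to -3.16). At D2 Ctrl cells had 165 reads (4.36 RPKM) and KD cells 35 (1.05 RPKM), so KD cells were 4.13-fold lower (-2.05, -2.62 to -1.51). Both kinds of cells were above their own D0 library, by 162-fold in Ctrl cells (7.34, 4.84 to 12.65) and 34.5-fold in KD cells (5.11, 2.54 to 10.45), with wide intervals because the D0 libraries held 1 read each.

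In PPARγ cells *Elovl3* gave the opposite order to the adipocyte genes. It was at 0.0979 in WT cells with DMSO and 0.257 with Rosi (4 and 8 reads) and at 0.109 and 3.74 in K36M cells (5 and 89 reads). With Rosi, K36M cells were 14.5-fold above WT cells (log2 ratio of 3.86, interval of 2.82 to 5.12), although 12 of the 12 adipocyte genes were over 2-fold lower in K36M cells in the same comparison. Of all genes in that comparison, 12.6% were over 2-fold lower and 28.4% higher. The Rosi library was 34.3-fold above the DMSO library in K36M cells (5.10, 3.82 to 6.76), and in WT cells the ratio of 2.63-fold had an interval that included no change (-0.51 to 3.58).

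*Otop1* (chr5:38667211-38695448, plus strand), which encodes a proton channel that is enriched in brown fat and acts in the inner ear, was seen mainly in the PPARγ cells. It had 0, 1, and 3 reads in WT cells at D0, D2, and D7, 1, 6, and 0 in K36M cells, 0 and 2 in Ctrl cells at D0 and D2, and 0 in both KD libraries. In PPARγ cells it had 4 reads in WT cells with DMSO and 22 with Rosi (0.0584 and 0.422 RPKM), and 39 and 91 in K36M cells (0.508 and 2.28 RPKM). Both K36M PPARγ libraries were above both WT PPARγ libraries. With Rosi the level was 7.23-fold higher in WT cells (log2 ratio of 2.85, interval of 1.30 to 4.85) and 4.49-fold higher in K36M cells (2.17, 1.61 to 2.75). K36M cells were 8.70-fold above WT cells with DMSO (3.12, 1.65 to 5.07) and 5.40-fold above them with Rosi (2.43, 1.75 to 3.18).

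The PPARγ libraries also held more reads in genes that these cells are not known to use. Of 1103 olfactory receptor genes, a set chosen after the values were seen, 499 and 599 had reads in K36M PPARγ cells with DMSO and Rosi, 278 and 250 in WT PPARγ cells, 141 in K36M cells at D2, and 27 to 71 in the other 9 libraries. Their mean RPKM was 0.0313 and 0.0689 in the K36M PPARγ libraries and 0.0160 and 0.0177 in the WT PPARγ libraries. *Otop1* was 16.2-fold and 33.1-fold above that mean in K36M PPARγ cells with DMSO and Rosi, and 3.64-fold and 23.9-fold above it in WT PPARγ cells. *Dio2*, at 0.0282 and 0.0543 in the K36M PPARγ libraries, was below that mean in both. *Ppargc1a*, at 0.0190 and 0.0855 there (3 and 7 reads), was at 0.609 and 1.24 times that mean. In the WT PPARγ libraries with DMSO and Rosi, *Ppargc1a* was at 5.77 and 17.5 times it. The part of this signal in the levels and ratios of the members, such as *Otop1*, *Elovl3*, and *Ppargc1a*, was not tested.

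**Figure D3:**
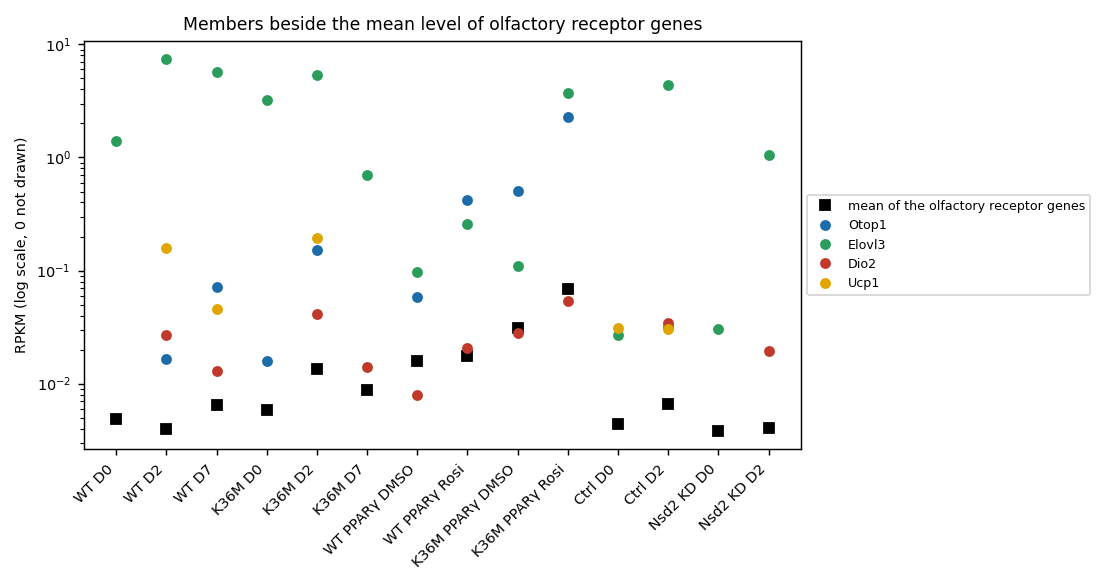
RPKM (vertical axis, log scale, values of 0 not drawn) of *Otop1*, *Elovl3*, *Dio2*, and *Ucp1* in the 14 libraries, beside the mean of 1103 olfactory receptor genes (black squares). The squares are highest in K36M PPARγ cells with Rosi, at 0.0689, where *Dio2* lies at 0.0543 and *Otop1* at 2.28.

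*Fabp3* (chr4:129985839-129992707, plus strand), which encodes the heart and muscle fatty acid binding protein that brown fat also uses, was highest in undifferentiated cells. It was at 3.80, 0.981, and 0.821 RPKM in WT cells at D0, D2, and D7 (52, 12, and 7 reads) and at 4.41, 0.624, and 1.66 in K36M cells (56, 5, and 13 reads). From D0 to D2 it was 3.87-fold lower in WT cells (log2 ratio of -1.95, interval of -2.99 to -1.03), 7.07-fold lower in K36M cells (-2.82, -4.50 to -1.51), and 4.08-fold lower in Ctrl cells (-2.03, -4.07 to -0.40), where it had 16 and 4 reads. It had 2 reads in each KD library and was 7.06-fold below Ctrl cells at D0 (-2.82, -5.98 to -0.73). In PPARγ cells it had 7 to 16 reads. *Fabp3* was the only member lower at D2 than at D0 in each of the WT, K36M, and Ctrl series with an interval that excluded no change.

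**Figure D4:**
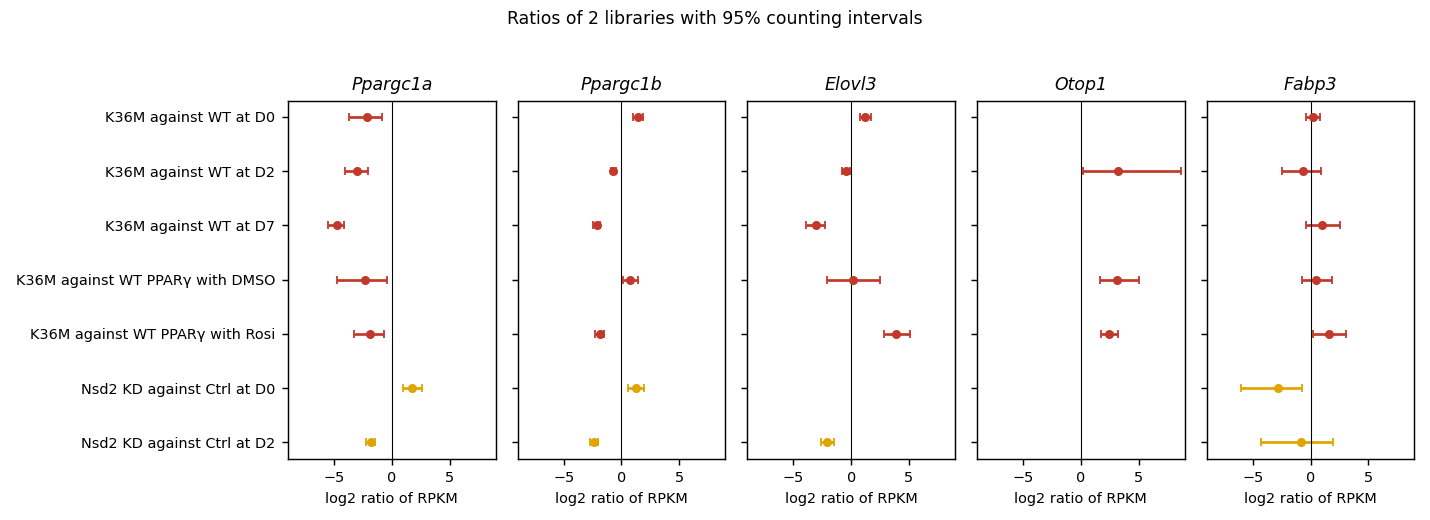
Log2 ratios of RPKM between 2 libraries (horizontal axis) for K36M against WT cells and KD against Ctrl cells in the 5 members with over 50 reads in a library, with bars for the 95% counting interval and ratios with 0 reads in a library or at most 3 reads in both left out. *Ppargc1b* lies above 0 at D0 and with DMSO and below 0 at D2, at D7, and with Rosi, and *Otop1* lies above 0 in each K36M comparison drawn.

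For the members, calls over 2-fold were read against the share of all genes called in the same comparison. Members and genes at 0 in both libraries were left out. Thus 7 of the 10 members were counted for K36M against WT cells and for KD against Ctrl cells at D0, and 8 or 9 in the other comparisons. Since a gene with 1 read against 0 counts as over 2-fold, these counts include changes of a few reads, and the genes whose counting interval also excluded no change are named. From D0 to D2 in WT cells, 6 members were higher (background 13.6%) and 1 was lower (25.2%), and the interval excluded no change for *Ucp1*, *Ppargc1a*, *Ppargc1b*, and *Elovl3* above and *Fabp3* below. From D2 to D7, 4 were higher (22.4%) and 2 lower (12.2%), with *Ppargc1a*, *Cox7a1*, and *Cox8b* beyond counting error. In K36M cells, 5 were higher (16.5%) and 2 lower (19.6%) from D0 to D2, with *Ucp1*, *Ppargc1b*, and *Otop1* above and *Fabp3* below, and 2 were higher (21.5%) and 5 lower (14.9%) from D2 to D7, with *Ppargc1b*, *Elovl3*, and *Otop1* below. The *Ucp1* call in each series rests on 0 reads at D0 and on 5 or 4 reads at D2. The members higher from D2 to D7 in K36M cells were *Cox8b*, with 2 reads against 0, and *Fabp3*, and neither was beyond counting error.

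Between K36M and WT cells, 4 members were higher in K36M cells (14.8%) and 1 lower (12.0%) at D0, with *Ppargc1b* and *Elovl3* above and *Ppargc1a* below beyond counting error. At D2, 2 were higher (22.2%) and 1 lower (9.90%), with *Otop1* above and *Ppargc1a* below. At D7, 1 was higher (19.7%) and 6 were lower (13.2%), with *Ppargc1a*, *Ppargc1b*, and *Elovl3* below. The median log2 ratio over the 7 members with reads in both libraries at D7 was -1.20, beside 0.13 over all genes, and over the 12 adipocyte genes it was -3.78. The members' median was the ratio of *Cox8b*, with 2 reads against 5, and *Dio2*, with 1 read in each library, was among the 7.

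With ectopic PPARγ, 6 members were higher with Rosi than with DMSO (17.0%) and 1 was lower (16.2%) in WT cells, with *Ppargc1a*, *Ppargc1b*, and *Otop1* beyond counting error. In K36M cells, 4 were higher (18.3%) and 1 was lower (15.0%), with *Ppargc1a*, *Ppargc1b*, *Elovl3*, and *Otop1* beyond it. Between K36M and WT PPARγ cells with DMSO, 3 were higher (23.9%) and 3 lower (8.31%), with *Cox7a1* and *Otop1* above and *Ppargc1a* below. With Rosi, 4 were higher (28.4%) and 3 lower (12.6%), with *Elovl3*, *Otop1*, and *Fabp3* above and both coactivator genes below. The coactivator genes thus lay on the opposite side from *Elovl3*, *Otop1*, and *Fabp3*. The remaining calls with Rosi, *Dio2* above and *Cidea* below, rest on 4 reads or fewer.

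In the KD experiment, 5 members were higher (17.3%) and 2 lower (23.4%) from D0 to D2 in Ctrl cells, with *Ppargc1a*, *Ppargc1b*, and *Elovl3* above and *Fabp3* below beyond counting error. In KD cells, 3 were higher (16.9%) and 2 lower (24.5%), and *Elovl3* alone was beyond it. Between KD and Ctrl cells at D0, 3 were higher (13.5%) and 3 lower (18.1%), with *Ppargc1a* and *Ppargc1b* above and *Fabp3* below. At D2, 1 was higher (12.0%) and 6 were lower (18.5%), with *Ppargc1a*, *Ppargc1b*, and *Elovl3* below. The other members had at most 4 reads in either library at D2, too few for an interval to exclude no change downward. The same 3 members were below WT cells in K36M cells at D7 beyond counting error. This overlap was thus limited to members with enough reads. The median over the members with reads in both libraries at D2 was -1.61, beside -0.04 over all genes and -4.38 over the adipocyte genes. The members' median fell between the ratios of *Ppargc1a* and *Cox7a1*, and *Cox7a1* had 1 read against 3.

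The regulators that act on thermogenic genes were present. Of 21 transcription factors and cofactors, 20 reached an RPKM of 1 in WT cells at D7. *Ebf2*, a factor that selects brown fat genes, was at 6.82, 25.4, and 13.0 in WT cells at D0, D2, and D7, and *Prdm16*, a coregulator of brown fat identity, at 1.36, 1.55, and 2.29. Both genes were chosen after their values were seen. Of the list, 9 were over 2-fold higher and 2 lower (*Esrrg* and *Cebpd*) in WT cells at D2 than at D0, with a median log2 ratio of 0.57 beside -0.04 over all genes. Over all genes 13.6% were higher and 25.2% lower, and 8 of the higher regulators and 1 of the lower ones were beyond counting error. The largest ratios of the list were those of *Cebpa*, a factor of all adipocytes (6.64 to 208), and *Irf4*, a partner of PGC-1α (0.0699 to 1.13). Between K36M and WT cells at D7, 0 were higher (19.7% of all genes) and 9 were lower (13.2%), all 9 beyond counting error (median of -0.66 beside 0.13). *Rxrg*, a retinoid receptor, was listed at 0 in K36M cells against 3.27 in WT cells. Between KD and Ctrl cells at D2, 0 were higher (12.0% of all genes) and 7 lower (18.5%), with a median of -0.57 beside -0.04. Of the 7 lower regulators, 5 were beyond counting error, led by *Cebpa* (78.7 to 4.80) and *Ebf2* (16.6 to 4.26).

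The adrenergic input was present as well. *Adrb3*, the β3-adrenergic receptor of adipocytes, was at 0.234, 0.262, and 11.6 RPKM in WT cells at D0, D2, and D7 and at 0.811, 0.114, and 1.05 in K36M cells. It was thus high only in the WT D7 library of this experiment, and K36M cells at D7 were 11.0-fold lower (log2 ratio of -3.46, interval of -4.00 to -2.97). With Rosi it was at 6.70 in WT PPARγ cells against 0.197 with DMSO, and at 0.593 and 0.573 in K36M PPARγ cells. Among the genes of adrenergic and cAMP signalling, large ratios in WT cells from D0 to D2 were those of *Pde3b*, a phosphodiesterase that breaks down cAMP (4.71 to 107), and *Prkar2b*, a regulatory subunit of protein kinase A (9.61 to 133).

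Other genes enriched in brown fat were measured alongside. Of 20 such genes, 11 were over 2-fold higher and 2 lower (*Acot11* and *Slc27a2*) in WT cells at D2 than at D0 (median of 1.17 beside -0.04 over all genes), led by *O3far1*, a fatty acid receptor (0.0671 to 4.02), and *Kcnk3*, a potassium channel (0.172 to 4.67). Over all genes 13.6% were higher and 25.2% lower, and 10 of the higher listed genes and 1 of the lower ones were beyond counting error. At D7, 9 were lower and 1 was higher (*Acot11*) in K36M cells than in WT cells (median of -0.87 beside 0.13). Each was beyond counting error, and over all genes 13.2% were lower and 19.7% higher. At D2, 9 were lower and 3 higher (*Acot11*, *Slc27a2*, and *S100b*) in KD cells than in Ctrl cells (median of -0.87 beside -0.04). In that comparison, 7 of the lower genes and 0 of the higher genes were beyond counting error, and over all genes 18.5% were lower and 12.0% higher. With Rosi, 6 were higher and 3 lower (*Gyk*, *Kcnk3*, and *O3far1*) in K36M PPARγ cells than in WT PPARγ cells, near the shares over all genes (28.4% and 12.6%), with a median of 0.04 beside 0.03. *Plin5*, which ties lipid droplets to mitochondria, was at 5.83 against 1.31 there, 4.45-fold higher (log2 ratio of 2.15, interval of 1.65 to 2.69). *Acot2*, a mitochondrial thioesterase, was at 69.5 against 27.4 (1.34, 1.23 to 1.45), and *Cpt1b*, which brings fatty acids into mitochondria, at 7.15 against 2.51 (1.51, 1.20 to 1.84), both named after their values were seen. Like *Elovl3*, these 3 genes were higher in K36M cells while the adipocyte genes were lower.

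Brown fat can also make heat without UCP1, through creatine and calcium cycles. Of 12 genes of these cycles, 5 reached an RPKM of 1 in WT cells at D7, and 5 were over 2-fold lower (*Ckb*, *Ckmt1*, *Slc6a8*, *Gatm*, and *Ryr2*) and 1 higher (*Alpl*) at D2 than at D0. Over all genes 25.2% were lower, the median of the list was -0.78 beside -0.04, and 4 of the lower genes were beyond counting error. In K36M cells at D7, 4 were higher (*Ckmt1*, *Slc6a8*, *Gatm*, and *Ryr1*) and 2 lower (*Ckmt2* and *Alpl*) than in WT cells, against 19.7% and 13.2% over all genes, and 3 of the higher genes and 1 of the lower genes were beyond counting error. *Ckmt1*, a mitochondrial creatine kinase, was at 8.60 against 0.425, 20.2-fold higher (log2 ratio of 4.34, interval of 3.38 to 5.49), and *Alpl*, a phosphatase placed in the creatine cycle, at 2.05 against 26.2. The median of the list at D7 was 0.75, beside 0.13 over all genes.

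Markers of other cell types were measured in the same libraries. The 16 skeletal muscle genes, which matter because *Cox7a1*, *Cox8b*, and *Fabp3* are also muscle genes, summed to an RPKM of 0.757 to 72.1, with *Acta1* alone at 67.5 in K36M PPARγ cells with DMSO and all 4 myogenic factor genes (*Myod1*, *Myog*, *Myf5*, and *Myf6*) at 0.0932 or lower in every library. The 5 macrophage genes found summed to 0.0442 to 3.34 and the 5 endothelial genes to 0.131 to 2.47. The 8 preadipocyte genes were all over 2-fold lower in WT cells at D2 than at D0 and all over 2-fold higher at D7 than at D2, with sums of 1049, 146, and 919, and 1357 in K36M cells at D7. Of 9 white adipocyte markers, 6 reached an RPKM of 1 in WT cells at D7, and *Lep*, which encodes leptin, was at 0.346. These sums are given beside the members, and their part in the members' levels was not tested.

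The genes whose profile over the 14 libraries was closest to each member were found among 10520 genes that reached an RPKM of 5 in a library, by the root mean square difference of centred log2(RPKM + 0.1). For *Ppargc1b* they were *Lpin1* (0.53), *Txlng* (0.55), and *Adipor2* (0.55), against a median of 1.53 over all candidates. *Lpin1* encodes a lipid phosphatase and *Adipor2* an adiponectin receptor. For *Ppargc1a* they were *Itga6* (0.69), *Gnai1* (0.69), and *Ralgapa2* (0.70), for *Elovl3* *Extl1* (0.81), *Cth* (0.84), and *Vldlr* (0.86), for *Otop1* *Bpifa6* (0.63), *Pkp2* (0.79), and *H3c15* (0.86), and for *Fabp3* *Stbd1* (0.52), *Slc6a15* (0.57), and *Klf7* (0.63). The nearest member to *Ppargc1a* was *Ppargc1b*, at 1.32, farther than the closest genes of any of these 5 members. For the 5 members with at most 12 reads, the profile turns on a few reads, and the closest genes are not named.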

How the data were processed

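RNA-Seq was done on poly(A) RNA of immortalized brown preadipocytes in 14 libraries, 1 per condition, and the 20 ChIP-Seq samples of the series were not analysed here. The authors deposited RPKM values per RefSeq transcript (29082 transcripts), with mm9 as the build per the labels. The read aligner and counter are not given in the sources used here, and the submitters' processing notes name CASAVA 1.8.2. Reads were recovered from the steps of the deposited RPKM values for 26945 of the 26946 transcripts with signal in more than 1 library (tolerance of 0.001 reads). Library totals were 12213559 to 24365867 mapped reads.

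Transcripts were joined to symbols, and the transcript with the highest mean RPKM stood for each gene. A gene was counted in a comparison when its RPKM was above 0 in either library and called when the ratio of RPKM passed 2-fold. Intervals are 95% Clopper-Pearson intervals from recovered reads. With 1 library per condition no test across conditions was possible, and no p-value is given. The scripts were tested on simulated data. Copies were searched with BLAST 2.17.0 in the mm9 genome, and promoters came from RefSeq (GRCm38.p6). Python 3.11.15, numpy 2.4.6, pandas 2.3.3, and scipy 1.17.1 were used. The members and gene lists were chosen with earlier results of these data known. Members were all named, and of each list the genes were named that made up a count of 5 or fewer or had the 2 largest ratios past 2-fold with an RPKM of at least 1, plus genes said to be chosen after their values were seen. Alternatives were pseudocounts of 0.1 and 1, an RPKM of at least 1, reads in both libraries, median-ratio scaling, the sum over transcripts, intervals that exclude no change, and a 3-fold limit.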

Additional observations from a re-analysis of the deposited data

Results flagged for a closer look

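For 3 members, the log2 ratio of the same contrast had opposite signs at different times, in different cells, or with different treatment, with both counting intervals excluding no change. *Ppargc1b* was higher in K36M than in WT cells at D0 (1.42) and lower at D2 (-0.72) and D7 (-2.12). It was also higher in K36M than in WT PPARγ cells with DMSO (0.76) and lower with Rosi (-1.90). From D2 to D7 its ratio was -1.21 in K36M cells and 0.19 in WT cells. In KD against Ctrl cells, *Ppargc1a* was higher at D0 (1.77) and lower at D2 (-1.83), and *Ppargc1b* was higher at D0 (1.26) and lower at D2 (-2.39). *Elovl3* was higher in K36M than in WT cells at D0 (1.21) and lower at D2 (-0.45) and D7 (-3.02). With 1 library per condition, the difference between these contrasts was not tested, and the intervals cover counting error only.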

How the results depend on the processing

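The counts of members called over 2-fold depended on how genes with few reads were treated. The pseudocounts, the RPKM and read requirements, the intervals, and the 3-fold limit cannot change the sign of a ratio. Median-ratio scaling moved these comparisons by at most 0.12 on the log2 scale, too little to reverse a ratio past 2-fold. The absence of reversals under these settings is therefore no check of direction. The sum over transcripts could have reversed a call and reversed none. The sum over transcripts left all 30 counts within 1.5 times. The counts that moved by over 1.5 times were as follows. With a pseudocount of 1 RPKM, the number of members higher became 0 for K36M D2 to D7, K36M against WT at D0, K36M against WT at D2, K36M against WT at D7, K36M against WT PPARγ cells with DMSO, KD D0 to D2, KD against Ctrl at D0, and KD against Ctrl at D2, 1 for K36M D0 to D2 and Rosi in WT PPARγ cells, 2 for WT D0 to D2, Rosi in K36M PPARγ cells, and K36M against WT PPARγ cells with Rosi, and 3 for Ctrl D0 to D2. With a pseudocount of 1 RPKM, the number of members lower became 0 for WT D2 to D7, K36M against WT at D0, K36M against WT at D2, Rosi in WT PPARγ cells, Rosi in K36M PPARγ cells, K36M against WT PPARγ cells with DMSO, Ctrl D0 to D2, KD D0 to D2, and KD against Ctrl at D0, 1 for K36M D0 to D2, K36M D2 to D7, and K36M against WT PPARγ cells with Rosi, and 3 for K36M against WT at D7 and KD against Ctrl at D2. With an RPKM of at least 1 in either library, the number of members higher became 0 for K36M against WT PPARγ cells with DMSO, KD against Ctrl at D0, and KD against Ctrl at D2, 1 for K36M D0 to D2, K36M D2 to D7, K36M against WT at D2, Rosi in WT PPARγ cells, and KD D0 to D2, 2 for K36M against WT at D0, and 3 for WT D0 to D2 and Ctrl D0 to D2. With an RPKM of at least 1 in either library, the number of members lower became 0 for WT D2 to D7, K36M against WT at D0, Rosi in WT PPARγ cells, Rosi in K36M PPARγ cells, K36M against WT PPARγ cells with DMSO, and KD D0 to D2, 1 for K36M D0 to D2, K36M against WT PPARγ cells with Rosi, Ctrl D0 to D2, and KD against Ctrl at D0, 2 for K36M D2 to D7, and 3 for KD against Ctrl at D2. With reads required in both libraries, the number of members higher became 0 for KD against Ctrl at D2, 1 for K36M D2 to D7 and KD D0 to D2, 2 for K36M against WT at D0, and 3 for WT D0 to D2, K36M D0 to D2, and Ctrl D0 to D2. With reads required in both libraries, the number of members lower became 0 for Rosi in WT PPARγ cells and Rosi in K36M PPARγ cells, 1 for K36M D0 to D2 and KD D0 to D2, and 3 for K36M D2 to D7. With a pseudocount of 0.1 RPKM, the number of members higher became 0 for K36M against WT at D7 and KD against Ctrl at D2, 1 for KD D0 to D2, and 3 for K36M D0 to D2 and Ctrl D0 to D2. With a pseudocount of 0.1 RPKM, the number of members lower became 0 for WT D2 to D7 and K36M against WT PPARγ cells with DMSO, 1 for Ctrl D0 to D2 and KD D0 to D2, and 3 for KD against Ctrl at D2. With counting intervals that exclude no change, the number of members higher became 0 for K36M D2 to D7, K36M against WT at D7, and KD against Ctrl at D2, 1 for K36M against WT at D2 and KD D0 to D2, 2 for K36M against WT at D0, and 3 for K36M D0 to D2, Rosi in WT PPARγ cells, and Ctrl D0 to D2. With counting intervals that exclude no change, the number of members lower became 0 for WT D2 to D7, Rosi in WT PPARγ cells, Rosi in K36M PPARγ cells, and KD D0 to D2, 1 for K36M D0 to D2, K36M against WT PPARγ cells with DMSO, Ctrl D0 to D2, and KD against Ctrl at D0, and 3 for K36M D2 to D7, K36M against WT at D7, and KD against Ctrl at D2. With a limit of 3-fold, the number of members higher became 0 for K36M against WT at D7, 1 for K36M D2 to D7 and K36M against WT at D2, 2 for K36M against WT at D0 and K36M against WT PPARγ cells with Rosi, and 3 for K36M D0 to D2. With a limit of 3-fold, the number of members lower became 1 for WT D2 to D7, Ctrl D0 to D2, and KD D0 to D2, and 3 for K36M D2 to D7. With median-ratio scaling, the number of members higher became 0 for K36M against WT at D7. Median-ratio scaling over 13540 genes moved K36M against WT at D7 by 0.12 on the log2 scale and ended the call of *Fabp3* there (0.90 in place of 1.02). No paired analysis was possible because each condition has 1 library and no result comes from a test. With 1 library per condition, no library could be left out. At 12213559 to 24365867 mapped reads, changes of *Ucp1*, *Cidea*, *Dio2*, and *Cox8b* between most libraries were not detectable.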

Other observations

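Control libraries of the 3 experiments differed in several members at D0 or with DMSO, and the experiment, vector, and batch cannot be told apart. For WT PPARγ cells, ectopic PPARγ and sub-confluent culture add to these. *Pparg* was at 60.2 RPKM in WT PPARγ cells with DMSO and at 13.4 in WT cells at D0. The *Fabp3* ratios also carry the limit of its near-identical copy elsewhere. *Ppia*, with 25 matches elsewhere, was between 0.753 and 2.24 in the 6 libraries of the first experiment and between 290 and 550 in the other 8. Whether reads were counted differently between the experiments was not tested. Against WT cells at D0, Ctrl cells at D0 had a log2 ratio of -1.23 for *Ppargc1b* (interval of -1.94 to -0.55) and -1.59 for *Fabp3* (-2.49 to -0.75). WT PPARγ cells with DMSO had a ratio of -1.18 for *Ppargc1a* (-2.25 to -0.19), -1.11 for *Ppargc1b* (-1.78 to -0.48), -3.83 for *Elovl3* (-5.76 to -2.40), and -2.40 for *Fabp3* (-3.54 to -1.41). At D2, Ctrl cells were above WT cells for *Ppargc1a* (1.13, 0.84 to 1.44) and below them for *Elovl3* (-0.76, -1.05 to -0.47). Median-ratio scaling subtracts a common log2 value from these ratios, which was -0.24 for Ctrl against WT cells at D0, -0.11 at D2, and -0.33 for WT PPARγ cells with DMSO against WT cells at D0.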
